A study of Mus musculus with 18 samples.

Results

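The SLC25 genes encode the mitochondrial carriers, the largest family of transporters in the inner mitochondrial membrane, and were studied here in mouse brown adipocytes. Members were taken by name, as every gene whose symbol is Slc25a followed by a number, which found 47 of the 20295 genes in the table (0.232%). Of these, 42 had enough reads to be tested, among 12156 tested genes. The cells were of a single wild-type line, BAT-LgT, in which SV40 large T antigen had immortalized brown preadipocytes, and were differentiated to day 7. RNA-seq was run on 18 samples in 6 groups of 3. Before stimulation, 3 groups received a lipase inhibitor mixture for 1 h. It holds Atglistatin (ATGLi), against adipose triglyceride lipase, and CAY10499 (HSLi), against hormone-sensitive lipase. Cells were then exposed for 3 h to Vehicle (DMSO), to 100 nM of the β-adrenergic agonist isoproterenol (ISO), or to SR-3420, a ligand of ABHD5 that sets off lipolysis without the receptor. The labels give SR-3420 at 10 µM and the study's methods state another dose, so its dose is uncertain. The groups without inhibitors are called Vehicle, ISO and SR-3420, and those with inhibitors bear the prefix Lipase Inh. All groups share the immortalized line and the solvent, and the samples come from separate experiments in that line, not from separate animals.

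Each carrier moves a small set of metabolites across the inner membrane, usually by exchanging one for another, and so links the matrix to the cytosol. Adenine nucleotide and phosphate carriers serve ATP synthesis, the carnitine carrier brings fatty acyl groups in for oxidation, and cofactor carriers supply NAD+ and coenzyme A. In brown adipocytes, fatty acids freed by the lipases are both fuel for the mitochondria and activators of uncoupling protein 1 (UCP1), itself a carrier of the same fold that has no Slc25a symbol.

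Total counts per sample lay between 10310447 and 21205032 in 17 libraries and at 4263755 in Lipase Inh. + SR-3420 replicate 2. In that library the gene Lars2 held 18.3% of the counts, against 0.0397% to 0.121% in the others, so called carrier effects that rest on the group are also given without it where their value is printed. Adipocyte genes were abundant, with Adipoq at 2415 to 4026 and Fabp4 at 2259 to 4451 CPM (counts scaled by library size). Ucp1 ranged from 1.39 to 789 CPM, while the brown fat subunit gene Cox7a1 stayed between 0.367 and 2.47 CPM. The summed CPM of 10 brown adipocyte markers was 7550 to 8320 in Vehicle, 9050 to 10600 in ISO, 7730 to 8330 in SR-3420, 6520 to 7410 in Lipase Inh. + Vehicle, 8350 to 8690 in Lipase Inh. + ISO and 7490 to 8010 in Lipase Inh. + SR-3420. The 6 preadipocyte markers summed to 103 to 180 CPM over all samples. Of these, ISO raised Pdgfra and Thy1. Of 5 leukocyte markers, Ptprc was at 0 counts in all 18 libraries, Emr1 in 17 and Lyz2 in 10, and Csf1r stayed under 1 CPM. The remaining one, Cd68, was seen in every library (1.96 to 5.88 CPM) and was higher with ISO (log2 0.74 ± 0.27, adjusted p = 0.0283). The 5 summed to 2.34 to 3.97 CPM in Vehicle, 4.1 to 6.3 in ISO, 3.09 to 4.78 in SR-3420, 2.64 to 4.23 in Lipase Inh. + Vehicle, 2.52 to 4.21 in Lipase Inh. + ISO and 2.97 to 3.46 in Lipase Inh. + SR-3420. Hepatocyte Alb was at 0 counts in 16 libraries. The brown adipocyte sum was highest in ISO and next highest in Lipase Inh. + ISO, and the part of these marker sums in the carrier results was not tested.

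Carriers of the adenylate and phosphate cycle led the family. Levels were compared between genes as CPM per kilobase of counted sequence (CPM per kb), which corrects for gene length. Slc25a5, the adenine nucleotide translocator of many tissues, stood at 646 ± 63.8 CPM per kb in Vehicle (mean ± SD, n = 3, as for all such values below). Slc25a4, the translocator best known from heart and muscle, stood at 487 ± 51.6 CPM per kb. Slc25a3, the phosphate carrier, came next with 211 ± 11.3, followed by the citrate carrier Slc25a1 with 159 ± 18.7 CPM per kb. Slc25a51, the mitochondrial NAD+ carrier, stood at 69.9 ± 0.503 CPM per kb in Vehicle and is among the 5 highest of the family over all 18 samples because of its level in both ISO groups. It reached 312 ± 13.7 CPM per kb in ISO and 409 ± 3.04 in Lipase Inh. + ISO, where Slc25a3 stood at 382 ± 13.8 and Slc25a4 at 620 ± 56.2. The tested carriers spanned a 2233-fold range of mean levels, down to Slc25a48. Slc25a45, Slc25a41, Slc25a43, Slc25a54 and the testis-type translocator Slc25a31 were not tested, and none of these 5 exceeded 10 counts in any library.

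**Figure D1:**
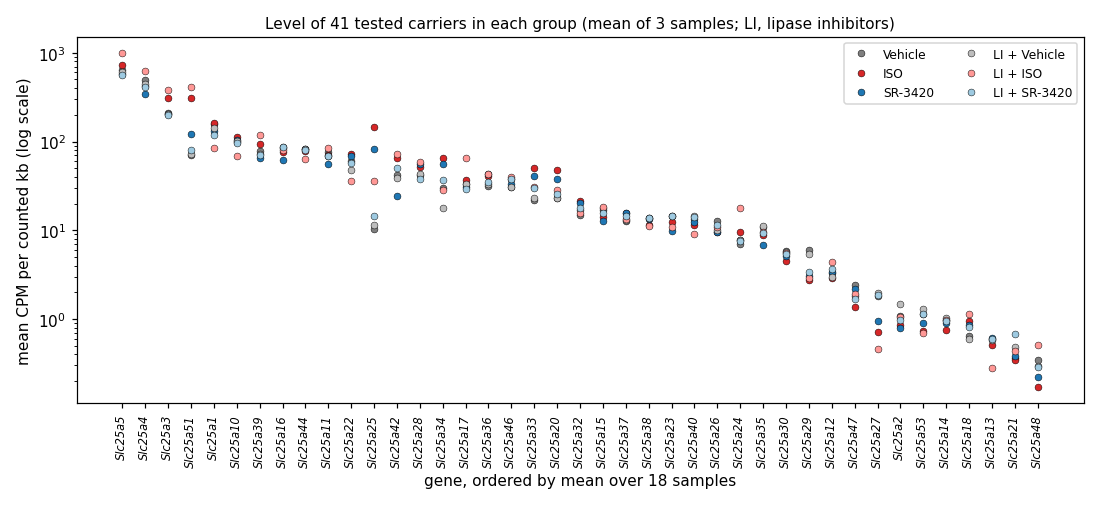
Mean CPM per counted kilobase (log axis) of 41 of the 42 tested carriers in each of the 6 groups, ordered by the mean over all 18 samples. Slc25a5, Slc25a4 and Slc25a3 lie at the top, and the points of Slc25a25 and Slc25a51 are spread the widest among the abundant members.

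The summed level of the family was higher in both ISO groups. It came to 5012 ± 253 CPM in Vehicle, 6933 ± 197 in ISO and 5006 ± 124 in SR-3420. With the inhibitors it was 4785 ± 338 CPM in Vehicle, 7471 ± 144 in ISO and 4790 ± 180 in SR-3420. Neither ISO group overlapped any other group. The size of the difference depends on the scaling. As a share of all counts, without TMM factors, the family took 0.521% to 0.585% in Vehicle, 0.609% to 0.632% in ISO and 0.486% to 0.51% in SR-3420, which then lay below Vehicle. With the inhibitors the share was 0.49% to 0.558% in Vehicle, 0.685% to 0.716% in ISO and 0.432% to 0.524% in SR-3420. The 0.432% is that of Lipase Inh. + SR-3420 replicate 2, where Lars2 held 18.3% of the counts. In RNA from whole cultures, less RNA per cell and fewer cells of a type cannot be told apart. The sum is carried by a few abundant genes. Its rise with ISO was largest in Slc25a51, from a mean of 310 to 1386 CPM without and from 319 to 1815 CPM with the inhibitors. Without the inhibitors, Slc25a25 went from 30.7 to 433 CPM with ISO and Slc25a4 from 537 to 462 CPM. The median log2 fold change of the 42 carriers was -0.015 with ISO, against -0.021 for all 12156 tested genes, and 0.075 against -0.011 for ISO under the inhibitors.

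ISO changed 23 carriers. Against Vehicle, 15 were higher and 8 lower at an adjusted p of 0.05 or less by edgeR's quasi-likelihood test, adjusted over all tested genes. Among all tested genes, 26.8% were higher and 25.0% lower, so the share of carriers changed was near that of genes in general. Changes of at least 2-fold were seen in 7 carriers, Slc25a25, Slc25a51, Slc25a33, Slc25a34 and Slc25a20 upward and Slc25a27 and Slc25a29 downward, against 9.11% of all genes. The split depends on the scaling of the libraries. With total counts alone, without TMM factors, the median of all genes moved by -0.306 on the log2 scale, and 7 carriers were higher and 18 lower.

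SR-3420 raised 9 carriers and lowered 13. Of all tested genes, 26.0% were higher and 25.4% lower. Slc25a25 was the only carrier past 2-fold, against 6.33% of all genes. Total-count scaling moved the median gene by -0.16 here and gave 6 carriers higher and 16 lower. The inhibitors alone raised 0 carriers and lowered 2, Slc25a34 and Slc25a22, with 0.485% of all genes higher and 0.428% lower. At an unadjusted p under 0.05, edgeR gave 0 higher and 3 lower, and DESeq2 called 0 and 2. Past 2-fold were 0 carriers by either p in edgeR, against 0.0494% of all genes.

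Under the inhibitors, ISO still changed 28 carriers. Against Lipase Inh. + Vehicle, 18 were higher and 10 lower, where 29.4% and 28.3% of all genes were. The 2-fold changes were Slc25a51, Slc25a25 and Slc25a24 upward and Slc25a27 and Slc25a13 downward, against 13.1% of all genes. With total-count scaling, which moved the median gene by -0.225, the split was 10 higher and 14 lower. SR-3420 under the inhibitors raised 5 carriers, Slc25a34, Slc25a42, Slc25a25, Slc25a33 and Slc25a46, and lowered 0, where 2.99% of all genes were higher and 1.36% lower. Slc25a34 alone passed 2-fold, against 0.296% of all genes. Without Lipase Inh. + SR-3420 replicate 2, 4 carriers were higher and 0 lower, and Slc25a46 was no longer called. Scaled to total counts, 1 carrier was higher and 2 lower. That scaling keeps Lipase Inh. + SR-3420 replicate 2 and its Lars2 reads, 18.3% of its counts, and their part in these losses was not tested. At an unadjusted p under 0.05, edgeR gave 3 carriers lower in this comparison, and DESeq2 called 2. Besides the losses given beside single carriers below, total-count scaling ended the calls for ISO under the inhibitors on Slc25a20, Slc25a28, Slc25a33, Slc25a36 and Slc25a4, for ISO on Slc25a24 and Slc25a36, for SR-3420 on Slc25a37 and Slc25a28 and for SR-3420 under the inhibitors on Slc25a25 and Slc25a33.

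**Figure D2:**
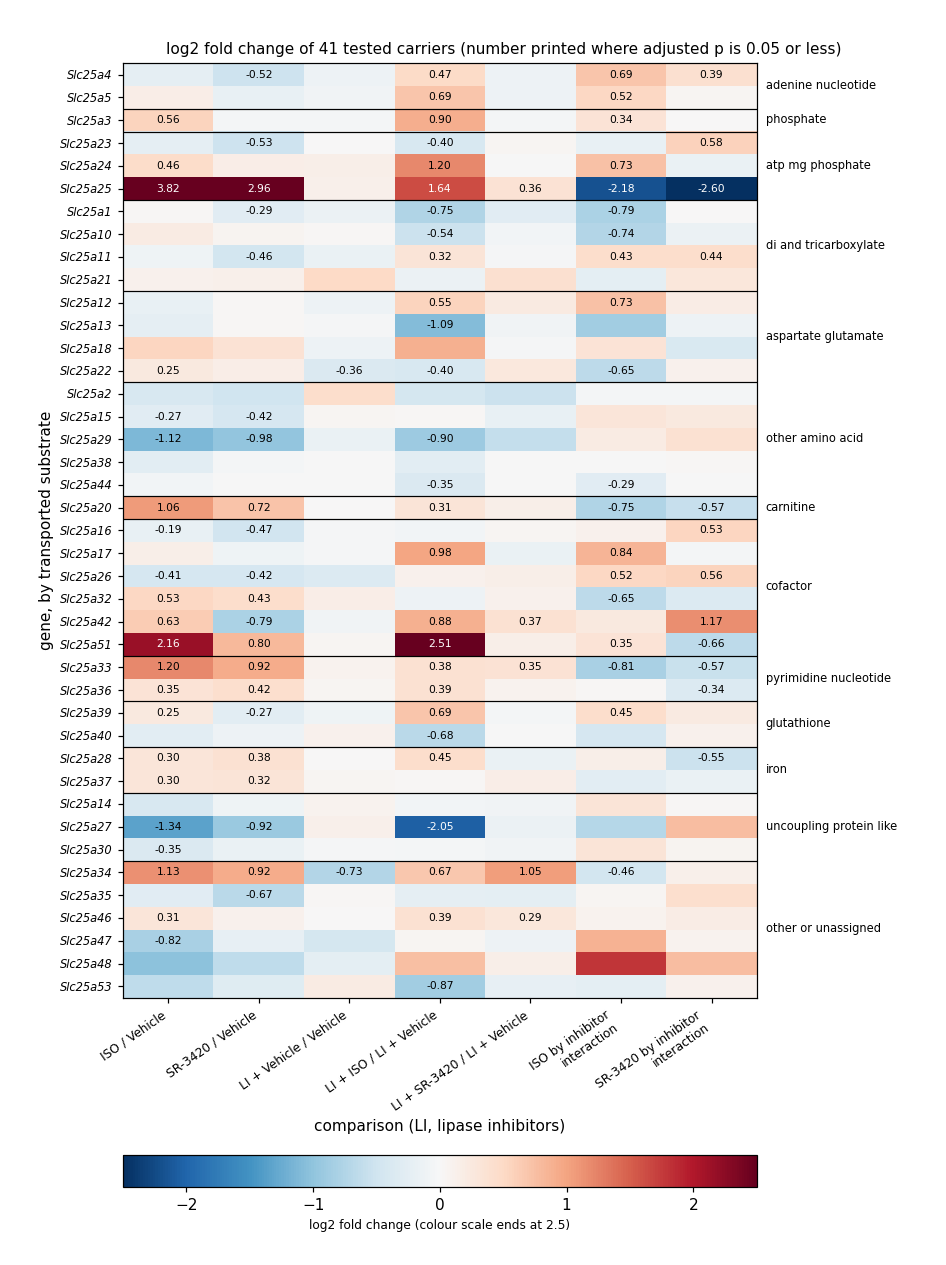
Log2 fold change of 41 of the 42 tested carriers (rows, grouped by substrate) in 5 comparisons and 2 interactions (columns), from red for higher to blue for lower, with the value printed where the adjusted p is 0.05 or less. Slc25a25 and Slc25a51 have the strongest colours, and the columns for inhibitors alone and for SR-3420 under inhibitors are nearly blank.

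The NAD+ carrier gene Slc25a51 (mm9, chr4:45408796-45421638, minus strand) rose with ISO whether or not the lipases were inhibited, and with SR-3420 only by a smaller step. Its levels were 313, 309 and 309 CPM in Vehicle, 1411, 1429 and 1316 in ISO and 552, 558 and 512 in SR-3420. With the inhibitors they were 329, 307 and 321 CPM in Vehicle, 1827, 1816 and 1801 in ISO and 360, 352 and 343 in SR-3420. Every ISO sample lay above every sample without ISO, and the Lipase Inh. + ISO samples lay above the ISO samples. ISO raised the gene 4.47-fold without the inhibitors (log2 2.16 ± 0.06, SE, adjusted p = 1.78e-17) and 5.69-fold with them (log2 2.51 ± 0.06, adjusted p = 1.37e-18). The interaction, which is the log2 effect with inhibitors minus the effect without, was 0.35 ± 0.08 (adjusted p = 0.00178). SR-3420 raised Slc25a51 1.74-fold (log2 0.80 ± 0.06, adjusted p = 2.29e-10), while under the inhibitors its effect was 0.14 ± 0.06 (adjusted p = 0.213). That interaction was -0.66 ± 0.08 (adjusted p = 3.13e-06), and -0.66, adjusted p = 1.54e-05 without Lipase Inh. + SR-3420 replicate 2. The called changes of Slc25a51 passed the threshold under every alternative tried.

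Slc25a25 (mm9, chr2:32270007-32306990, minus strand), a calcium-regulated carrier that exchanges ATP-Mg for phosphate, had the largest fold change of the tested carriers in ISO and in SR-3420. Its levels were 32.1, 28.2 and 31.8 CPM in Vehicle, 419, 441 and 439 in ISO and 236, 242 and 241 in SR-3420. Under the inhibitors they were 35.2, 34.8 and 31.1 CPM in Vehicle, 106, 101 and 107 in ISO and 43.8, 37.04 and 46.4 in SR-3420. The ISO samples lay highest and the SR-3420 samples next, both without overlap with any other group, and the Lipase Inh. + ISO samples stood between these and the controls. ISO raised the gene 14.1-fold (log2 3.82 ± 0.08, adjusted p = 3.28e-19), and 3.11-fold under the inhibitors (log2 1.64 ± 0.07, adjusted p = 5.84e-14). The interaction was -2.18 ± 0.10 (adjusted p = 2.44e-12). For SR-3420 the effect went from 7.81-fold (log2 2.96 ± 0.08, adjusted p = 4.06e-17) to 1.29-fold (log2 0.36 ± 0.08, adjusted p = 0.00827; 0.43, adjusted p = 0.00269 without Lipase Inh. + SR-3420 replicate 2), with an interaction of -2.60 ± 0.11 (adjusted p = 9.42e-13). Without Lipase Inh. + SR-3420 replicate 2 that interaction was -2.54, adjusted p = 2.42e-12. The remaining rise under the inhibitors missed the threshold without Lipase Inh. + Vehicle replicate 3 or Lipase Inh. + SR-3420 replicate 3 (log2 from 0.29 to 0.31, adjusted p up to 0.0862). The span of Slc25a25 shares 1014 bases with Naif1 on the opposite strand, and whether the counting used strand is not stated.

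The 3 promoters printed here, chosen after the values were seen, belong to carriers that rose with ISO and hold the cAMP response element or its half-site, the DNA letters that the protein kinase A target CREB is known to bind. Promoters are from RefSeq (GRCm38.p6) and run from 250 bases before to 50 bases after a start site. Entries were found for 36 of the 47 carriers, with 46 promoters in all, and none for Slc25a51. The full element TGACGTCA, read on both strands, occurs in 1.79% of the 32851 promoters in the table and in 2 of the 46 carrier promoters, those of Slc25a25 and Slc25a36. The half-site TGACG, which overlaps the full element, occurs in 20.8% of all promoters and in 13 carrier promoters of 12 genes, Slc25a33 among them. Of these 12 genes ISO raised 5, lowered 1 (Slc25a16) and left 6 uncalled. The 5 raised were Slc25a3, Slc25a25, Slc25a28, Slc25a33 and Slc25a36, and the promoters of Slc25a3 and Slc25a28 are not printed. Under total-count scaling the ISO calls of Slc25a36 (log2 0.04, adjusted p = 0.712) and Slc25a28 (log2 -0.011, adjusted p = 0.941) were lost. Among all tested genes 26.8% were higher and 25.0% lower with ISO, and among the 42 tested carriers 35.7% and 19%. A link of these sites to the rise was not tested. Capitals mark TGACG or its reverse complement.
Slc25a25 promoter at an internal start (GRCm38.p6 chr2:32424017-32424316, minus strand): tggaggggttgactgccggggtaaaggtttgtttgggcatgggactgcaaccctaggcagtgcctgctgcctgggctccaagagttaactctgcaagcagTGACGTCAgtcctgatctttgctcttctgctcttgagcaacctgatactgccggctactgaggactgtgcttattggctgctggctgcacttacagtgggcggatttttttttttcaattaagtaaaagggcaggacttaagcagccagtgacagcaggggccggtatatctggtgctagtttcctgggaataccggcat
Slc25a36 promoter (GRCm38.p6 chr9:97110992-97111291, minus strand): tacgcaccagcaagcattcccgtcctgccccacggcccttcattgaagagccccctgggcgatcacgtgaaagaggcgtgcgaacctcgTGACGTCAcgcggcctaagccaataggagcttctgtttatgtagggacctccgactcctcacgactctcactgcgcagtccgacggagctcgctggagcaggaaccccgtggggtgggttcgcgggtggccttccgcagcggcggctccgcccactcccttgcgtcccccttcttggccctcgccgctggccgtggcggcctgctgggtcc
Slc25a33 promoter (GRCm38.p6 chr4:149774218-149774517, minus strand): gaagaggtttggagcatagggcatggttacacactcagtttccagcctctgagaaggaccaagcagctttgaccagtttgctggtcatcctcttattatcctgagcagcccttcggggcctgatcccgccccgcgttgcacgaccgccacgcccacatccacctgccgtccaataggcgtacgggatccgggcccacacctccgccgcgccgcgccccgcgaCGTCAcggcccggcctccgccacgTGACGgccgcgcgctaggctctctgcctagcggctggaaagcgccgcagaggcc
The element begins 150 bases before the start in Slc25a25 and 161 bases before it in Slc25a36, and the half-sites of Slc25a33 begin 28 and 4 bases before its start. Slc25a25 has 3 RefSeq promoters and this is the only one with a match. Found by its exact sequence in mm9, that start lies 27404 bases downstream of the first base of the span whose reads were counted, so it belongs to a shorter transcript, and the counts do not tell the starts apart. The pair of AGGTCA half-sites 1 base apart, to which PPAR receptors bind, was found in 0 of the 46 carrier promoters and 0.0396% of all. The composite TGATGCAA, bound by ATF4 with C/EBP proteins, was also found in 0, against 0.895% of all. The single half-site AGGTCA was found in the promoters of Slc25a34, Slc25a39, Slc25a45 and Slc25a47, against 16.3% of all promoters.

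The other tested carriers of ATP-Mg were Slc25a24 and Slc25a23. Slc25a24 (mm9, chr3:108926067-108971327, plus strand) stood at 21.3, 25.3 and 24.3 CPM in Vehicle, 31.7, 33.4 and 32.2 in ISO and 26.6, 26.3 and 26.4 in SR-3420. Its levels under the inhibitors were 24.9, 25.6 and 27.8 CPM in Vehicle, 60.96, 57.9 and 60.6 in ISO and 23.97, 22.6 and 29.8 in SR-3420. The Lipase Inh. + ISO samples stood far above all others. ISO raised Slc25a24 2.29-fold under the inhibitors (log2 1.20 ± 0.09, adjusted p = 2.45e-10) and 1.38-fold without them (log2 0.46 ± 0.09, adjusted p = 0.000303), with an interaction of 0.73 ± 0.13 (adjusted p = 0.000163), opposite in sign to that of Slc25a25. Slc25a23, the third tested member, fell with SR-3420 (log2 -0.53 (adjusted p = 0.00118)) and with ISO under the inhibitors (log2 -0.40 (adjusted p = 0.00774)). The difference between these genes was not tested.

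**Figure D3:**
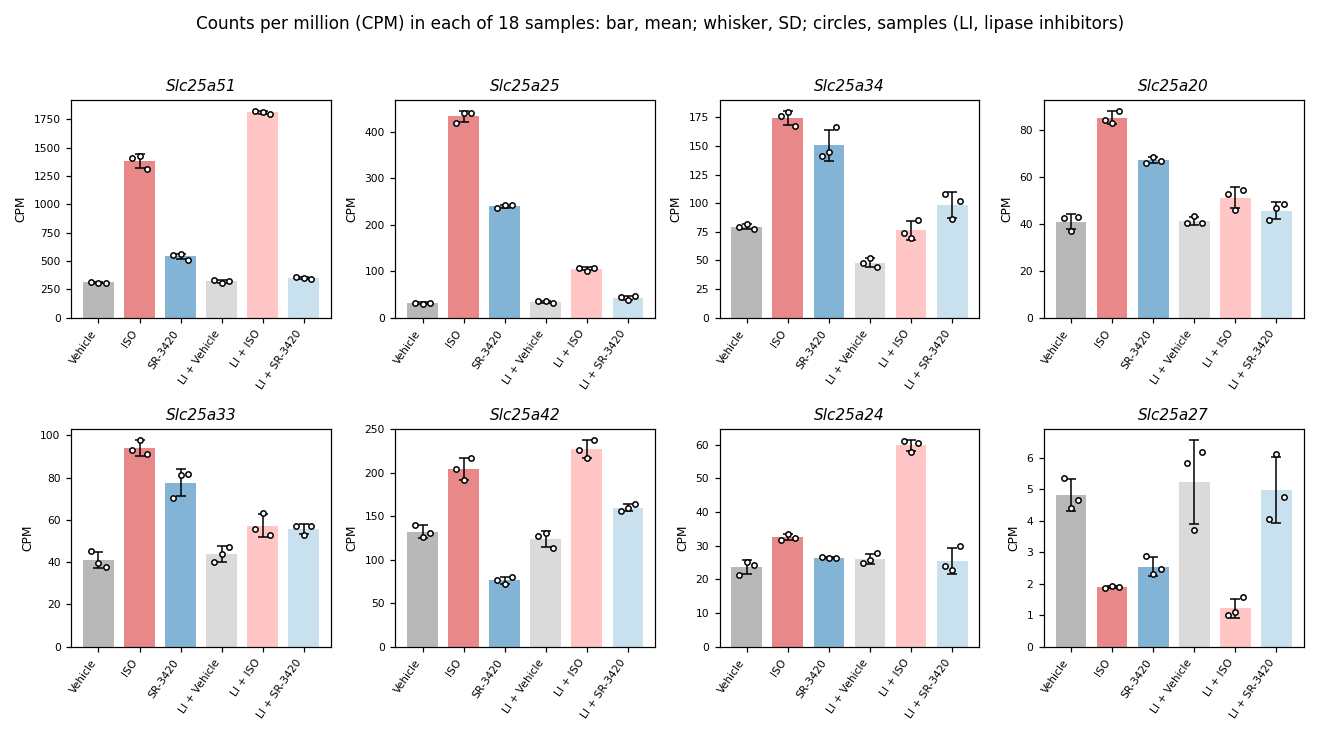
CPM (linear axes from 0) of 8 carriers in each of the 18 samples, with bars for group means, whiskers for SD over 3 samples and circles for samples. Slc25a51 is high in both ISO groups, Slc25a25 is highest in ISO and SR-3420 without the inhibitors, and Slc25a27 is lowest in the 2 ISO groups.

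Slc25a20 (mm9, chr9:108564429-108586972, plus strand), the carnitine-acylcarnitine carrier that brings fatty acyl groups into the matrix, rose with ISO and with SR-3420, and less under the inhibitors. Its levels were 42.3, 37.1 and 42.9 CPM in Vehicle, 84.4, 82.8 and 88.2 in ISO and 65.8, 68.4 and 66.7 in SR-3420. Under the inhibitors they were 40.5, 43.2 and 40.2 CPM in Vehicle, 52.9, 46.04 and 54.4 in ISO and 41.5, 46.9 and 48.4 in SR-3420. The ISO and SR-3420 samples stood above all others. The log2 effect of ISO was 1.06 ± 0.08 (adjusted p = 3.49e-10) without and 0.31 ± 0.08 (adjusted p = 0.00213) with inhibitors, an interaction of -0.75 ± 0.11 (adjusted p = 2.39e-05). For SR-3420 it was 0.72 ± 0.08 (adjusted p = 1.77e-07) and 0.14 ± 0.08 (adjusted p = 0.448), an interaction of -0.57 ± 0.12 (adjusted p = 0.000772), and -0.59, adjusted p = 0.00138 without Lipase Inh. + SR-3420 replicate 2. Scaled to total counts, the effect of ISO without inhibitors stayed higher but fell under 2-fold, as it did for Slc25a33 and Slc25a34.

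The pyrimidine nucleotide carriers, which supply the matrix with precursors for mitochondrial DNA and RNA, both rose. Slc25a33 (mm9, chr4:149118145-149148376, minus strand) stood at 45.1, 39.8 and 37.8 CPM in Vehicle, 92.98, 97.97 and 91.1 in ISO and 70.2, 81.1 and 81.7 in SR-3420. Under the inhibitors it stood at 39.9, 43.8 and 47.4 CPM in Vehicle, 55.7, 63.2 and 52.6 in ISO and 56.9, 53.03 and 57 in SR-3420. Again the ISO and SR-3420 samples lay above all others. ISO raised it 2.29-fold (log2 1.20 ± 0.09, adjusted p = 2.82e-10), and 1.3-fold under the inhibitors (log2 0.38 ± 0.09, adjusted p = 0.000865), an interaction of -0.81 ± 0.12 (adjusted p = 3.07e-05). SR-3420 raised it 1.89-fold (log2 0.92 ± 0.09, adjusted p = 2.15e-08). The effect of SR-3420 under the inhibitors was 0.35 ± 0.09 (adjusted p = 0.0264), and it missed the threshold without Lipase Inh. + Vehicle replicates 1 or 2 or Lipase Inh. + SR-3420 replicates 1 or 3 (log2 from 0.30 to 0.36, adjusted p up to 0.162). Without Lipase Inh. + SR-3420 replicate 2 it was 0.38, adjusted p = 0.0402. Slc25a36, its close relative, rose by smaller steps, log2 0.35 (adjusted p = 0.000748) with ISO, 0.42 (adjusted p = 0.000102) with SR-3420 and 0.39 (adjusted p = 0.000202) with ISO under the inhibitors.

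Slc25a34 (mm9, chr4:141174740-141179749, minus strand), whose substrate is not settled, fell with the inhibitors alone and rose with both stimuli. Its levels were 79.1, 82.1 and 77.5 CPM in Vehicle, 176, 180 and 167 in ISO and 141, 144 and 166 in SR-3420. With inhibitors they were 48.05, 52.1 and 43.9 CPM in Vehicle, 73.9, 69.5 and 85.3 in ISO and 108, 85.8 and 102 in SR-3420. The Lipase Inh. + Vehicle samples lay below all others. The inhibitors alone lowered it (log2 -0.73 ± 0.09, adjusted p = 8.63e-05). ISO raised it 2.19-fold (log2 1.13 ± 0.09, adjusted p = 6.79e-10) without and 1.59-fold (log2 0.67 ± 0.09, adjusted p = 1.9e-06) with the inhibitors. SR-3420 raised it 1.9-fold (log2 0.92 ± 0.09, adjusted p = 2.16e-08) without and 2.08-fold (log2 1.05 ± 0.09, adjusted p = 5.75e-07) with them. The SR-3420 interaction was 0.13 ± 0.13 (adjusted p = 0.479), and without Lipase Inh. + SR-3420 replicate 2 the effect under the inhibitors was 1.13, adjusted p = 4.15e-07. The ISO interaction was -0.46 ± 0.13 (adjusted p = 0.00832), and it was lost under total-count scaling (log2 -0.38, adjusted p = 0.0774).

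Among the cofactor carriers, Slc25a42 moved in opposite directions in different groups. Slc25a42 (mm9, chr8:72708239-72736180, minus strand), a carrier of coenzyme A, stood at 140, 126 and 130 CPM in Vehicle, 205, 192 and 217 in ISO and 76.6, 71.7 and 80.4 in SR-3420. Under the inhibitors it stood at 127, 130 and 113 CPM in Vehicle, 226, 217 and 238 in ISO and 156, 159 and 164 in SR-3420. It was the only carrier that SR-3420 lowered without the inhibitors and raised with them. It rose 1.55-fold with ISO (log2 0.63 ± 0.07, adjusted p = 1.38e-07) and fell with SR-3420 (log2 -0.79 ± 0.07, adjusted p = 8.62e-09), so that ISO and SR-3420 differed by 1.42 ± 0.07 (adjusted p = 2.54e-12). Under the inhibitors, ISO raised it by 0.88 ± 0.07 (adjusted p = 5.33e-10) and SR-3420 by 0.37 ± 0.07 (adjusted p = 0.00265) on the log2 scale, the latter 0.38, adjusted p = 0.0091 without Lipase Inh. + SR-3420 replicate 2. The SR-3420 interaction was 1.17 ± 0.10 (adjusted p = 3.47e-08), and 1.17, adjusted p = 1.95e-07 without Lipase Inh. + SR-3420 replicate 2. The small rise with SR-3420 under the inhibitors was lost under total-count scaling (log2 0.26, adjusted p = 0.116).

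Calls were also made in the cofactor carriers Slc25a17, Slc25a32, Slc25a16 and Slc25a26. Slc25a17, the peroxisomal carrier of coenzyme A, FAD and NAD+, was raised by ISO under the inhibitors (log2 0.98 ± 0.08, adjusted p = 1.44e-09), while its effect without them was 0.14 (adjusted p = 0.177), an interaction of 0.84 ± 0.12 (adjusted p = 1.01e-05). Slc25a32, which carries folate and FAD, rose with ISO (log2 0.53 (adjusted p = 0.000344)) and SR-3420 (0.43 (adjusted p = 0.00194)), and these calls were lost under total-count scaling (log2 0.22, adjusted p = 0.136 and 0.28, adjusted p = 0.0693). Slc25a16 fell with SR-3420 (log2 -0.47 (adjusted p = 9.16e-07)), with an interaction of 0.53 (adjusted p = 6.68e-05), and 0.52, adjusted p = 0.000254 without Lipase Inh. + SR-3420 replicate 2. Slc25a16 was also lower with ISO (log2 -0.187, adjusted p = 0.01075), but not past the threshold without ISO replicate 2 (log2 -0.144, adjusted p = 0.064). Slc25a26, the S-adenosylmethionine carrier, was lower with SR-3420 (log2 -0.42 (adjusted p = 0.00854)), but not past the threshold without Vehicle replicate 3 or SR-3420 replicate 3 (log2 from -0.34 to -0.32, adjusted p up to 0.055). With ISO it was lower too (log2 -0.415, adjusted p = 0.00977), but not past the threshold without Vehicle replicate 3 (log2 -0.316, adjusted p = 0.0576).

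The carriers of oxidative phosphorylation were highest with ISO under the inhibitors. Slc25a3 stood at 338, 310 and 307 CPM in Vehicle, 452, 532 and 427 in ISO and 590, 588 and 553 in Lipase Inh. + ISO, and rose by 0.56 ± 0.07 (adjusted p = 1.05e-06) and 0.90 ± 0.07 (adjusted p = 6.67e-10) on the log2 scale without and with inhibitors. Slc25a5 rose with ISO under the inhibitors (log2 0.69 ± 0.10, adjusted p = 6.08e-06), from 757 ± 96.8 to 1217 ± 50.97 CPM, while without them its change was 0.17 (adjusted p = 0.177). Slc25a4 rose from 493 ± 58.2 to 684 ± 62.04 CPM (log2 0.47 ± 0.10, adjusted p = 0.000219) and fell with SR-3420 from 537 ± 56.9 to 376 ± 39.3 CPM (log2 -0.52 ± 0.10, adjusted p = 0.000122). The ISO interactions were 0.69 (adjusted p = 0.000447) for Slc25a4, 0.52 (adjusted p = 0.00842) for Slc25a5 and 0.34 (adjusted p = 0.0146) for Slc25a3. Reads of Slc25a4 and Slc25a5 can be shared with near-identical copies in the genome.

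The citrate and dicarboxylate carriers Slc25a1 and Slc25a10 fell with ISO under the inhibitors and did not pass the test without them. Slc25a1, which exports citrate for cytosolic acetyl-CoA, stood at 267 ± 31.3 CPM in Vehicle, 275 ± 8.01 in ISO, 241 ± 28.8 in Lipase Inh. + Vehicle and 143 ± 5.8 in Lipase Inh. + ISO. Its ISO effect was 0.04 ± 0.08 (adjusted p = 0.707) without and -0.75 ± 0.08 (adjusted p = 7.39e-08) with inhibitors, an interaction of -0.79 ± 0.12 (adjusted p = 1.47e-05). For Slc25a10 the values were 0.20 ± 0.08 (adjusted p = 0.0506), -0.54 ± 0.08 (adjusted p = 1.14e-05) and an interaction of -0.74 ± 0.12 (adjusted p = 5.13e-05). Slc25a11, the 2-oxoglutarate and malate carrier of the malate-aspartate shuttle, went the other way under the inhibitors with ISO (log2 0.32 (adjusted p = 0.0123)), but not past the threshold without Lipase Inh. + Vehicle replicate 3 (log2 0.26, adjusted p = 0.0674) or under total-count scaling (log2 0.09, adjusted p = 0.431). It fell with SR-3420 (log2 -0.46 (adjusted p = 0.000946)).

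In the carriers of aspartate and glutamate the calls were scattered. Slc25a22, a glutamate carrier, stood at 171, 170 and 168 CPM in Vehicle, 198, 222 and 184 in ISO and 181, 205 and 186 in SR-3420. With inhibitors it stood at 126, 150 and 120 CPM in Vehicle, 95.6, 102 and 101 in ISO and 165, 170 and 144 in SR-3420. All Lipase Inh. + ISO samples lay below all others. ISO lowered it under the inhibitors (log2 -0.40 ± 0.09, adjusted p = 0.000381). Without them it was higher with ISO (log2 0.25 ± 0.08, adjusted p = 0.0177), a direction that reversed under total-count scaling (-0.06, adjusted p = 0.576) and a call that was lost without ISO replicate 2 (log2 0.17, adjusted p = 0.126). The interaction was -0.65 ± 0.12 (adjusted p = 0.000247). The inhibitors alone lowered it (log2 -0.36 ± 0.09, adjusted p = 0.0366), which missed the threshold without Vehicle replicates 1, 2 or 3 or Lipase Inh. + Vehicle replicates 1 or 3 (log2 from -0.38 to -0.30, adjusted p up to 0.24).

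Slc25a13 (mm9, chr6:5991218-6167173, minus strand), the aspartate-glutamate carrier known from liver, was scarce. Its levels were 2.4, 2.32 and 0.794 CPM in Vehicle, 1.94, 1.26 and 1.58 in ISO and 1.47, 1.67 and 2.52 in SR-3420. Under inhibitors they were 1.53, 1.56 and 2.37 CPM in Vehicle, 0.45, 1.28 and 0.862 in ISO and 1.53, 2.4 and 1.65 in SR-3420, from a median of 19.5 counts per library. With ISO under the inhibitors it was lower (log2 -1.09 ± 0.40, adjusted p = 0.0232), but not past the threshold without Lipase Inh. + Vehicle replicate 3 or Lipase Inh. + ISO replicates 1 or 3 (log2 from -1.09 to -0.83, adjusted p up to 0.132). Slc25a12, the other aspartate-glutamate carrier, was higher there (log2 0.55 (adjusted p = 0.00564)), which total-count scaling removed (log2 0.33, adjusted p = 0.0822).

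Of the other amino acid carriers, Slc25a29 was the one past 2-fold. Slc25a29 (mm9, chr12:110064088-110074086, minus strand), a carrier of basic amino acids, stood at 12.1, 12.8 and 10.6 CPM in Vehicle, 5.9, 4.79 and 5.67 in ISO and 7.35, 6.13 and 4.72 in SR-3420. With inhibitors it stood at 9.62, 11.4 and 10.8 CPM in Vehicle, 5.49, 5.49 and 5.88 in ISO and 8.47, 4.8 and 6.68 in SR-3420. The Vehicle and Lipase Inh. + Vehicle samples lay above all stimulated samples. It fell with ISO (log2 -1.12 ± 0.17, adjusted p = 1.1e-05), with SR-3420 (-0.98 ± 0.16, adjusted p = 3.87e-05) and with ISO under the inhibitors (-0.90 ± 0.17, adjusted p = 8.91e-05), and for SR-3420 under the inhibitors the value was -0.60 ± 0.17 (adjusted p = 0.0523). Slc25a44, a branched-chain amino acid carrier, fell with ISO under the inhibitors by a small step (log2 -0.35 (adjusted p = 0.000336)). Slc25a15, the ornithine carrier, fell with ISO (log2 -0.27 (adjusted p = 0.00877)) and SR-3420 (-0.42 (adjusted p = 0.000229)). Slc25a38, the glycine carrier, and Slc25a2 passed no test. The span of Slc25a2 lies within those of the protocadherin entries Pcdha4-g, Pcdha6-g and Pcdha7-g on the opposite strand.

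Slc25a27 (mm9, chr17:43778849-43803964, minus strand), also called UCP4 and mostly known from brain, fell with ISO. Its levels were 5.37, 4.41 and 4.67 CPM in Vehicle, 1.87, 1.93 and 1.89 in ISO and 2.87, 2.31 and 2.46 in SR-3420. Under inhibitors they were 5.83, 3.71 and 6.18 CPM in Vehicle, 0.99, 1.1 and 1.57 in ISO and 4.05, 6.13 and 4.77 in SR-3420. Both ISO groups lay below every unstimulated sample, at counts with a median of 42 per library. The log2 change with ISO was -1.34 ± 0.23 (adjusted p = 5.41e-05) without and -2.05 ± 0.24 (adjusted p = 2.21e-07) with inhibitors, and with SR-3420 -0.92 ± 0.22 (adjusted p = 0.00121). The related Slc25a14 passed no test, and Slc25a30 passed with ISO at the threshold (log2 -0.35 (adjusted p = 0.0483)), but not without Vehicle replicates 2 or 3 or ISO replicates 1 or 2 (log2 from -0.35 to -0.30, adjusted p up to 0.155).

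The iron carriers Slc25a37 and Slc25a28 (mitoferrins) and the glutathione carriers Slc25a39 and Slc25a40 changed by less than 2-fold. With SR-3420, Slc25a37 rose by 0.32 (adjusted p = 0.00158) and Slc25a28 by 0.38 (adjusted p = 0.00717) on the log2 scale, the latter missing the threshold without SR-3420 replicate 2 (log2 0.24, adjusted p = 0.0779). Slc25a39 fell with SR-3420 (log2 -0.265, adjusted p = 0.002446), a call that was lost after thinning to the smallest library. Its level was higher in ISO than in SR-3420 in every alternative (log2 from 0.369 to 0.549). With ISO, Slc25a37 (0.30 (adjusted p = 0.00298)), Slc25a28 (0.30 (adjusted p = 0.0318)) and Slc25a39 (0.25 (adjusted p = 0.00359)) were higher. All 3 calls were lost under total-count scaling, where the signs turned (log2 -0.009, -0.011 and -0.056) without passing the threshold (adjusted p = 0.9405, 0.9408 and 0.6097). The Slc25a28 call was also lost without Vehicle replicates 1, 2 or 3 or ISO replicates 1 or 2 (log2 from 0.18 to 0.32, adjusted p up to 0.21). Under the inhibitors ISO raised Slc25a39 (log2 0.69 ± 0.07, adjusted p = 1.19e-08) and lowered Slc25a40 (log2 -0.68 ± 0.15, adjusted p = 0.000522).

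Of the other members without a settled substrate, Slc25a35 fell with SR-3420 (log2 -0.67 (adjusted p = 0.000324)). Slc25a46, which acts at the outer membrane, rose with ISO without (log2 0.31 (adjusted p = 0.0024)) and with (0.39 (adjusted p = 0.000217)) the inhibitors, calls that were lost under total-count scaling (log2 0.00, adjusted p = 0.991 and 0.16, adjusted p = 0.129). Its rise with SR-3420 under the inhibitors (log2 0.29 (adjusted p = 0.0372)) missed the threshold without Lipase Inh. + Vehicle replicates 1, 2 or 3 or Lipase Inh. + SR-3420 replicates 2 or 3 (log2 from 0.23 to 0.31, adjusted p up to 0.223). Slc25a47 was lower with ISO (log2 -0.82 (adjusted p = 0.0126)), but not past the threshold without Vehicle replicate 2 or ISO replicate 3 (log2 from -0.69 to -0.67, adjusted p up to 0.0619). Slc25a53, whose span overlaps Zcchc18, was lower with ISO under the inhibitors (log2 -0.87 (adjusted p = 0.0176)), but not without Lipase Inh. + Vehicle replicate 1 or Lipase Inh. + ISO replicate 2 (log2 from -0.82 to -0.55, adjusted p up to 0.1). Slc25a48 passed no test. In all, 36 of the 42 carriers passed the test in at least 1 of the 5 comparisons (85.7%, against 80.4% of all tested genes), and Slc25a2, Slc25a14, Slc25a18, Slc25a21, Slc25a38 and Slc25a48 in none.

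The effect of ISO with and without the inhibitors comes from separate samples, since each has its own Vehicle group. Of the 15 carriers higher with ISO, 12 (80.0%) were also higher with ISO under the inhibitors, where they made up 66.7% of the 18 higher. Of all tested genes higher with ISO, 65.7% were also higher there. Of the 8 carriers lower with ISO, 2 were lower under the inhibitors as well (25%, and 20% of the 10 lower there), against 60.7% of all genes lower with ISO. Slc25a22 was called in opposite directions. For SR-3420, 3 of the 9 raised carriers (33.3%) were also raised under the inhibitors, namely Slc25a25, Slc25a33 and Slc25a34, and 0 of the 13 lowered carriers were lowered there. Over all tested genes these shares were 8.97% of the raised and 3.04% of the lowered. These shares are given as a description, with no test.

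The interactions test these differences directly. For ISO, 11 carriers had a positive and 9 a negative interaction, where 14.9% and 16.6% of all tested genes had one. Among the carriers reported by name, Slc25a25 passed 2-fold, against 6.89% of all genes. The negative ones were in Slc25a25, Slc25a33, Slc25a20, Slc25a34, Slc25a32, Slc25a22, Slc25a1, Slc25a10 and Slc25a44, and the positive ones included Slc25a51, Slc25a24, Slc25a3 and Slc25a39. The ISO interaction of Slc25a44 missed the threshold in 14 of 20 alternatives (adjusted p up to 0.524). For SR-3420, 7 carriers had a positive and 6 a negative interaction, where 12.5% and 14.8% of all genes had one, and without Lipase Inh. + SR-3420 replicate 2 there were 4 and 6. Slc25a42 and Slc25a25 passed 2-fold, against 3.82%. The 6 negative ones were Slc25a25, Slc25a51, Slc25a20, Slc25a33, Slc25a28 and Slc25a36. Of these, Slc25a36 missed the threshold in 7 of 20 alternatives (adjusted p up to 0.109) and Slc25a28 in 3 (up to 0.241).

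**Figure D4:**
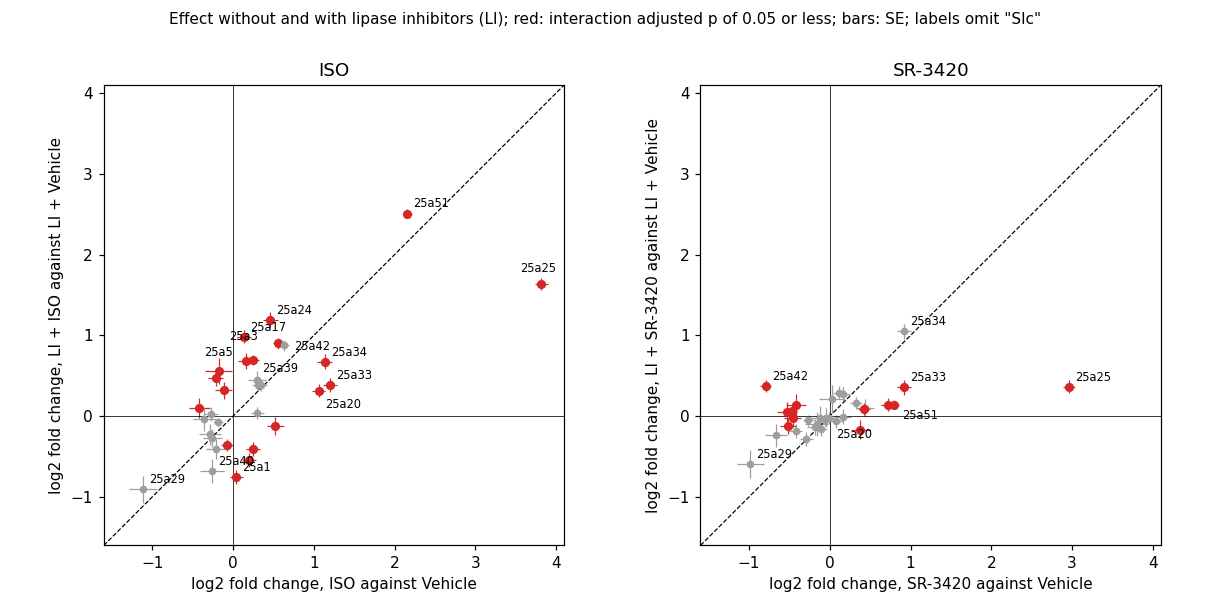
Log2 fold change without (x axis) and with (y axis) lipase inhibitors for ISO (left) and SR-3420 (right), for 32 tested carriers with a median of at least 50 counts, with SE bars, the line of equal effects dashed and carriers with an interaction at an adjusted p of 0.05 or less in red. Slc25a51 lies above the line for ISO and Slc25a25 far below it for both stimuli, and most points for SR-3420 lie near 0 on the y axis.

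ISO and SR-3420 were also set against each other without inhibitors. Of the 42 carriers, 15 were higher in ISO than in SR-3420 and 0 were lower, where 15.8% and 13.9% of all genes were. At an unadjusted p under 0.05, edgeR gave 1 lower, and DESeq2 called 0. The number higher was 9 without ISO replicate 2, and total-count scaling gave 5 higher and 2 lower. Slc25a42 (log2 1.42 ± 0.07) and Slc25a51 (1.36 ± 0.06, adjusted p = 1.03e-13) passed 2-fold, against 2.04% of all genes. Slc25a25 differed by 0.85 ± 0.07 (adjusted p = 4.94e-09) and Slc25a3 by 0.62 ± 0.07 (adjusted p = 1.4e-06). For Slc25a34 the difference was 0.21 ± 0.09 (adjusted p = 0.0713).

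Genes that work with the carriers were counted from lists of their relatives, their import machinery, the enzymes beside them and other mitochondrial transporters. The medians of these lists are given beside that of all tested genes, which was -0.021 for ISO and -0.011 for ISO under the inhibitors. Of the 5 tested relatives, ISO raised 2 and lowered 2 (median log2 0.1), against 26.8% and 25.0% of all genes. SR-3420 raised 1 and lowered 2 (median 0.064), against 26.0% and 25.4%. Under the inhibitors ISO raised 3 and lowered 0 (median 1.14), against 29.4% and 28.3%. Ucp1 rose with ISO (log2 7.08 ± 0.28, adjusted p = 9.56e-15), with SR-3420 (2.11 ± 0.34, adjusted p = 2.17e-05) and with ISO under the inhibitors (8.20 ± 0.29, adjusted p = 8.66e-16). Ucp3 rose with ISO (1.15 ± 0.21, adjusted p = 6.09e-05) and with SR-3420 (1.06 ± 0.22, adjusted p = 0.00468) under the inhibitors, and Ucp2 with ISO there (1.14 ± 0.07, adjusted p = 1.02e-11). The group behind the SR-3420 value of Ucp3 holds Lipase Inh. + SR-3420 replicate 2, and its value without that library is not given here.

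The import genes, mostly TIM and TOM subunits that guide newly made carriers through the outer membrane and into the inner one, rose with ISO under the inhibitors in 10 of 12 tested genes (median log2 0.527), where 29.4% of all genes were higher, and the other 2, Timm13 and Agk, missed the threshold, with Timm10 (log2 1.22 ± 0.13, adjusted p = 8.79e-08) and Tomm70a (1.13 ± 0.07, adjusted p = 5.36e-12) past 2-fold. With ISO alone 7 were higher and 2 lower (median 0.278), against 26.8% and 25.0% of all genes. With SR-3420 3 were higher and 3 lower (median -0.069), against 26.0% and 25.4% and an all-gene median of -0.017. Of 17 tested enzymes of the carnitine, malate-aspartate, NAD+ and related steps, ISO raised 5 and lowered 2 (median 0.163). Of all genes, 26.8% were higher and 25.0% lower. Past 2-fold were the aspartate aminotransferase Got1 (log2 1.62 ± 0.11, adjusted p = 3.65e-11), the carnitine palmitoyltransferase Cpt1a (1.03 ± 0.10, adjusted p = 2.11e-08) and the NAD+ synthesis enzyme Nmnat3, which fell (-1.25 ± 0.10, adjusted p = 1.97e-09). Under the inhibitors ISO raised 9 and lowered 3 (median 0.211), against 29.4% and 28.3% of all genes. Got1 (2.03 ± 0.10, adjusted p = 4.03e-13), Cpt1a (1.68 ± 0.10, adjusted p = 4.48e-12) and the carnitine acetyltransferase Crat (1.01 ± 0.06, adjusted p = 1.34e-11) were past 2-fold there. SR-3420 raised 8 of these enzymes and lowered 5 (median -0.006), against 26.0% and 25.4% of all genes. Of 18 tested mitochondrial transporters outside the family, ISO raised 4 and lowered 7 (median -0.065), against 26.8% and 25.0% of all genes. Under the inhibitors ISO raised 6 and lowered 7 of them (median -0.086), against 29.4% and 28.3%. SR-3420 raised 0 and lowered 7 (median -0.163), against 26.0% and 25.4%. The sodium-calcium exchanger Slc8b1 fell with ISO without (log2 -1.40 ± 0.12, adjusted p = 4.27e-09) and with (-1.20 ± 0.12, adjusted p = 2.73e-08) the inhibitors, and Sfxn5 fell with ISO under the inhibitors (-1.54 ± 0.12, adjusted p = 7.68e-10).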

How the data were processed

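RNA-seq was measured in 18 samples, 6 groups of 3. The deposited values are raw counts of reads per gene, which the authors made by aligning reads to mm9 with STAR 2.4.2a, and counting per gene with iRNA-seq; the use of strand is not given in the sources used here. The study's methods also name a HOMER step that allows 1 read per position and length. The table holds up to 18.9 reads per counted base in the carriers (Slc25a5), so how far that step acted on these counts is not known. Total counts ranged from 4263755 to 21205032. The SD given with a level covers the spread between samples of a group, which may be partly technical. The SE given with a log2 effect comes from the test described below. Columns of other samples numbered 0.

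Genes were filtered with filterByExpr (minimum count 10, minimum total 15) and all 18 samples were fitted together by edgeR 4.0.16 (R 4.3.3) with TMM factors, 6 group means and 8 contrasts. P-values are 2-sided and adjusted by Benjamini-Hochberg over 12156 genes. The SE of a log2 fold change was not fitted directly. It is the size of the change divided by the square root of the test's F statistic, which uses a variance moderated across genes. A carrier was called at an adjusted p of 0.05 or less, and past 2-fold where its log2 fold change was also at least 1 in size. CPM values use TMM-scaled library sizes. Carriers described with every sample's value are Slc25a51, Slc25a34 and those past 2-fold in any of 8 contrasts, 10 in all. A further carrier, counted in the totals, is not reported here by name. The 5 highest are given with group means, and list genes with values where past 2-fold. Members and lists were chosen with earlier results of these data known. Alternatives were RLE and total-count scaling, DESeq2 1.42.0, other filters, only the groups compared, the replicate number as a block, thinning to the smallest library, and leaving out each sample. Coordinates are mm9, counted from 1, except RefSeq promoters on GRCm38.p6.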

Additional observations from a re-analysis of the deposited data

Results flagged for a closer look

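The effect of a stimulus differed between cells without and with the lipase inhibitors in 4 results given here, by a test of the interaction itself in edgeR. They were picked out because the interaction passed the threshold and either reached 2-fold or joined effects called in opposite directions. With ISO, Slc25a25 had an interaction of -2.18 (log2, effect with inhibitors minus effect without), since its log2 effect was 3.82 without and 1.64 with them. Slc25a22 had one of -0.65, from 0.25 to -0.40, and the first of these effects has no fixed direction across scalings. With SR-3420, Slc25a25 had an interaction of -2.60, from 2.96 to 0.36. Slc25a42 had one of 1.17, from -0.79 to 0.37. These are 4 of 33 carrier interactions past the threshold over both stimuli.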

How the results depend on the processing

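Of 128 carrier changes past the threshold over the 8 contrasts, 68 kept their direction and passed in every alternative that could be fitted, and 60 did not in at least 1. The counts that held were 128 with RLE factors and with the replicate block, 127 with DESeq2, 126 with no filter, 121 with only the groups compared, 92 with total counts and, of 127 that could be refitted, 127 with a minimum count of 50 and 89 after thinning to the smallest library. With 1 sample left out, 856 of 966 held and 110 lost the threshold. The losses after thinning show what the depth limits.

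Total-count scaling moved the median of all genes by -0.306 for ISO, -0.16 for SR-3420, -0.225 for ISO under inhibitors, and -0.147 for ISO against SR-3420. It gave 7 carriers higher and 18 lower with ISO, 10 higher with ISO under inhibitors, 1 higher and 2 lower with SR-3420 under inhibitors, and 5 higher and 2 lower for ISO against SR-3420. It turned the sign of the ISO effect of Slc25a37 (-0.009), Slc25a39 (-0.056), Slc25a22 (-0.061) and Slc25a28 (-0.011). None of these values passed the threshold (adjusted p from 0.5757 to 0.9408). The share of higher calls went from 65.2% to 28.0% for ISO, 40.9% to 27.3% for SR-3420, 64.3% to 41.7% for ISO under inhibitors and 100% to 33.3% for SR-3420 under inhibitors. Thinning gave 4 lower with ISO, 1 lower with inhibitors alone, 1 higher with SR-3420 under inhibitors, 6 positive ISO and 3 negative SR-3420 interactions, and 9 higher for ISO against SR-3420. With only the groups compared, 1 was lower with inhibitors alone and 2 higher with SR-3420 under inhibitors. For SR-3420 under inhibitors, the 0 lower became 2 with DESeq2, 2 with no filter and 1 with a minimum count of 50. The cause of these differences was not tested.

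Leaving out 1 sample gave 9 to 15 higher for ISO against SR-3420 (9 without ISO replicate 2), and 4 to 8 positive SR-3420 interactions (4 without SR-3420 replicate 3, Lipase Inh. + Vehicle replicate 1 or Lipase Inh. + SR-3420 replicate 2). For SR-3420 under inhibitors it gave 3 to 4 higher (3 without Lipase Inh. + Vehicle replicate 1 or 3, or Lipase Inh. + SR-3420 replicate 3) and 0 to 1 lower (1 without Lipase Inh. + Vehicle replicate 3 or Lipase Inh. + SR-3420 replicate 1). For inhibitors alone it gave 1 to 2 lower (1 without any Vehicle sample, or Lipase Inh. + Vehicle replicate 1 or 3).

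The replicate numbers were not taken to pair the samples, since not every pair of same-numbered samples deviated together (a correlation over 0.1 in 1 of 15 pairs for replicate 1, 12 for replicate 2 and 15 for replicate 3, on average -0.0118, 0.15 and 0.19) and the labels name no shared batch. As a hint from the data, 12 of 18 samples correlated best with their own number. With the replicate block, carriers higher and lower were 17 and 12 with ISO, 10 and 14 for SR-3420, 0 and 2 with inhibitors alone, 19 and 11 with ISO under inhibitors, 6 and 2 with SR-3420 under inhibitors, and 18 and 1 for ISO against SR-3420.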
